A study of Rattus norvegicus with 5 samples.

Results

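The genes described here encode the secreted Wnt ligands, their Frizzled and LRP receptors, the R-spondin axis that sets receptor abundance, the secreted antagonists, and β-catenin, Axin2 and the TCF/LEF factors that carry the signal to the nucleus. They were taken from the gene table of a rat cornea RNA-seq series by a rule on gene symbols that uses no measured value, and numbered 52 of 20339 genes; rows for other family members were not analysed here. Corneas came from male Sprague-Dawley rats aged 6 months. The 2 transgenic P1 hMR rats carry and overexpress the human gene NR3C2, which encodes the mineralocorticoid receptor (MR), a steroid receptor for aldosterone and glucocorticoids. The 3 wild-type rats lack it, and no treatment is named for either group. The promoter that drives the transgene and the number of founder lines are not given in the sources used here. Nothing in the labels says how rats were matched by litter or day, so p-values measure the spread between these 5 samples. The comparison asks whether excess MR alters Wnt pathway transcripts in the cornea.

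In canonical signalling a Wnt ligand joins a Frizzled and LRP5 or LRP6 at the membrane, β-catenin escapes degradation and, with TCF/LEF factors, switches on genes such as Axin2. SFRP proteins, FRZB and WIF1 bind ligands outside the cell, and Dickkopf proteins such as DKK2 bind LRP5/6. R-spondins, through LGR receptors, block RNF43, a ubiquitin ligase that removes Frizzled from the surface. In the mouse eye, loss of Dkk2 turns the corneal surface towards a skin-like epithelium, and Wnt balance also governs limbal progenitors.

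Human NR3C2 had 1094 and 1146 counts in transgenic corneas 1 and 2, against 0, 0 and 0 counts in wild-type corneas 1 to 3, which fits the genotype labels. Column totals ran from 26280687 to 30449675 counts in transgenic libraries and from 20874010 to 27692181 in wild-type libraries. Corneal epithelium markers, Krt12 among them, summed to 95118 to 120069 CPM (counts scaled by the TMM-corrected depth to a common total) in transgenic and 102940 to 116418 CPM in wild-type corneas, and stromal and endothelial markers were read in every library. Markers of neighbouring tissue differed: 9 of 9 pigment-cell and ciliary genes had a higher mean in transgenic corneas, with sums of 94.1 and 169.9 CPM in transgenic corneas 1 and 2, against 53.2, 13.3 and 39.7 CPM in wild-type corneas 1 to 3; Mlana was at 0 in wild-type cornea 2. Lens genes went the other way, with 0 of 8 higher. Their sums were 15.8 and 9.07 CPM in transgenic corneas 1 and 2, against 123, 28.2 and 22.4 CPM in wild-type corneas 1 to 3. Retinal genes had 7 of 8 higher, but their sums overlapped, with 21.1 and 25.0 CPM in transgenic and 7.10 to 24.4 CPM in wild-type corneas. Of 8 stromal keratocyte genes 7 had a higher mean, with sums of 2366 and 2546 CPM in transgenic and 1929.9 to 2046 CPM in wild-type corneas. Corneal endothelial genes, 7 of 8 higher, summed to 1142 and 1147 CPM in transgenic and 959.9 to 1079 CPM in wild-type corneas. The part of these markers in the results below was not tested, and in whole tissue a change in the number of cells of a type and a change in RNA per cell cannot be told apart.

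No Wnt family gene passed the test of genotype. Of the 52 members, 50 had counts in at least 1 library and 42 passed the low-count filter. By edgeR's quasi-likelihood test with adjustment over 13304 genes, 0 of these 42 were called; over all genes 0.00752% were called, a single gene, NR3C2. DESeq2 and limma voom also called 0 members, with 5 and 6 at an unadjusted p under 0.05, where 811 and 927 of 13304 genes were. At an unadjusted edgeR p under 0.05, 5 members were higher in transgenic corneas (Dkk2, Fzd2, Sfrp2, Lrp5 and Wnt2b), where 4.39% of all genes were, and 1 was lower (Wnt6), where 1.93% were. By edgeR, 6 members in all were under 0.05, where 841 of 13304 genes were. Their number was 4 without wild-type cornea 1 (783 of 13088 genes) or 2 (566 of 13223 genes). It was 8 without wild-type cornea 3 (1441 of 13224 genes), so the number over all genes moved with the library left out too. Fits without a transgenic cornea leave 1 in that group, so no such count is given for them.

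By role, fold changes of antagonists and receptors lay mostly above 0 and those of ligands mostly below, a difference between roles that was not tested. Fold changes were above 0 in 23 of 42 members (48.2% of all genes), with a median log2 fold change of 0.03 against -0.01 over all genes. Counted by role, 6 of 8 antagonists, 6 of 9 receptors, 4 of 5 genes of the R-spondin axis, 4 of 14 ligands and 1 of 4 TCF/LEF factors were above 0. Median log2 fold changes were 0.38 for antagonists, 0.18 for receptors, 0.23 for the R-spondin axis, -0.07 for ligands and -0.03 for TCF/LEF factors. The antagonist median lay between Wif1 (0.17 ± 0.28) and Sfrp5 (0.58 ± 0.70), which had only 4 to 20 counts per library. Sfrp1 and Dkk3, the antagonists of highest CPM, were below 0. In 9 of the 42 members the lower transgenic value exceeded the highest wild-type value, as in 12.0% of all genes, and in 0 members the order was the reverse, as in 10.7%. The 9 include 4 antagonists, 3 receptors, 1 ligand and 1 R-spondin, Rspo3. Rspo3, Rspo1 and Sfrp5 would not have passed the low-count filter on their wild-type counts alone. Rspo3 had 24 and 24 counts in transgenic corneas against 7, 12 and 6 in wild-type ones, and Rspo1 had 11 and 35 against 10, 16 and 8. The R-spondin axis count and median, and Rspo3 among the 9, therefore carry no weight on genotype.

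**Figure D1:**
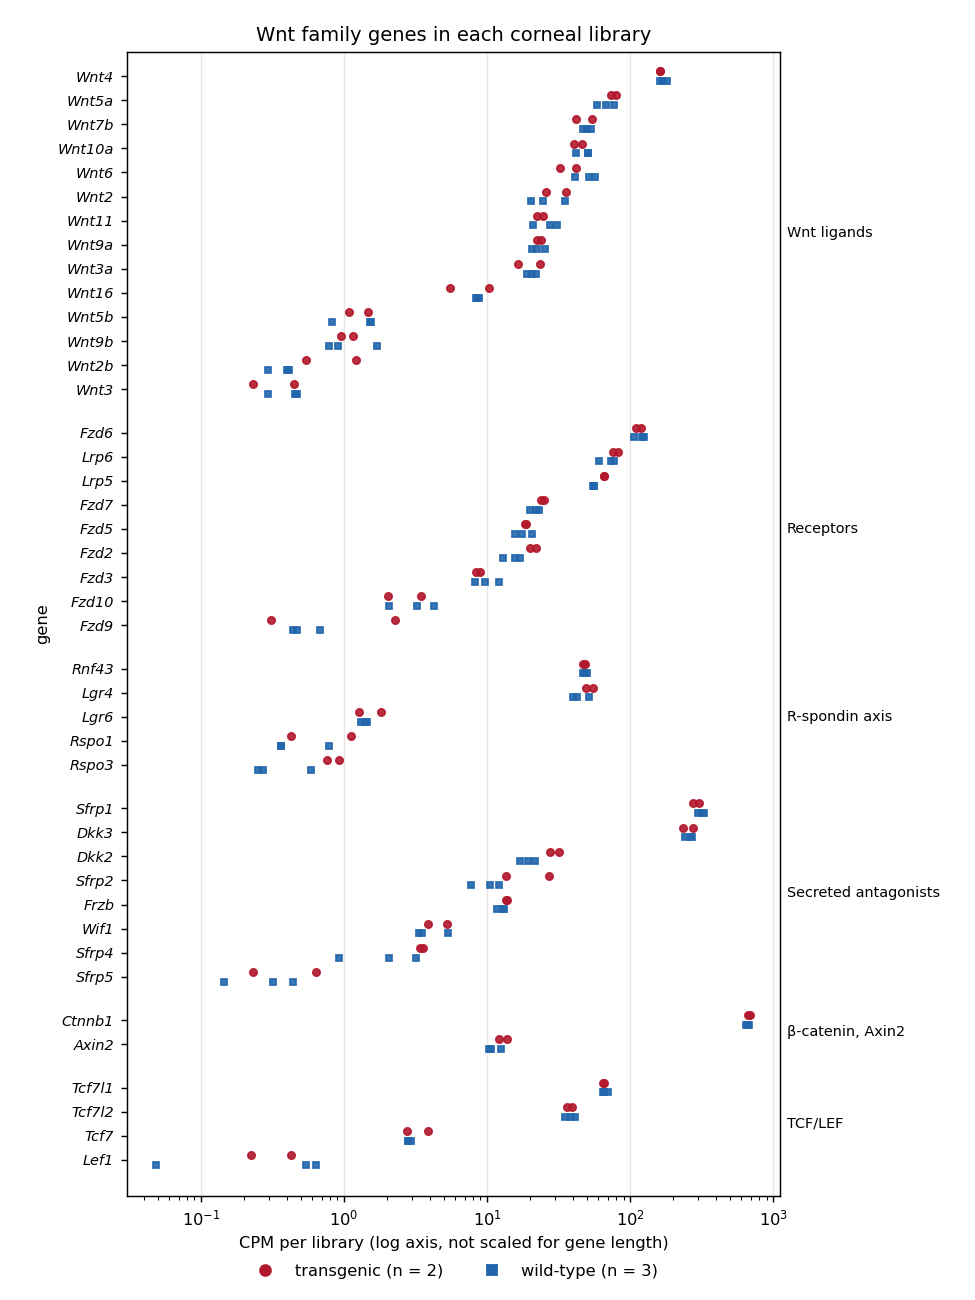
CPM of the 42 tested Wnt family genes in each library on a log axis, by role, with transgenic corneas as red circles and wild-type corneas as blue squares. Most members had overlapping values, while both Dkk2 values of transgenic corneas (27.3 and 32.1 CPM) lay above the 3 wild-type ones; levels are not scaled for gene length, so rows are not to be ranked against each other.

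**Figure D2:**
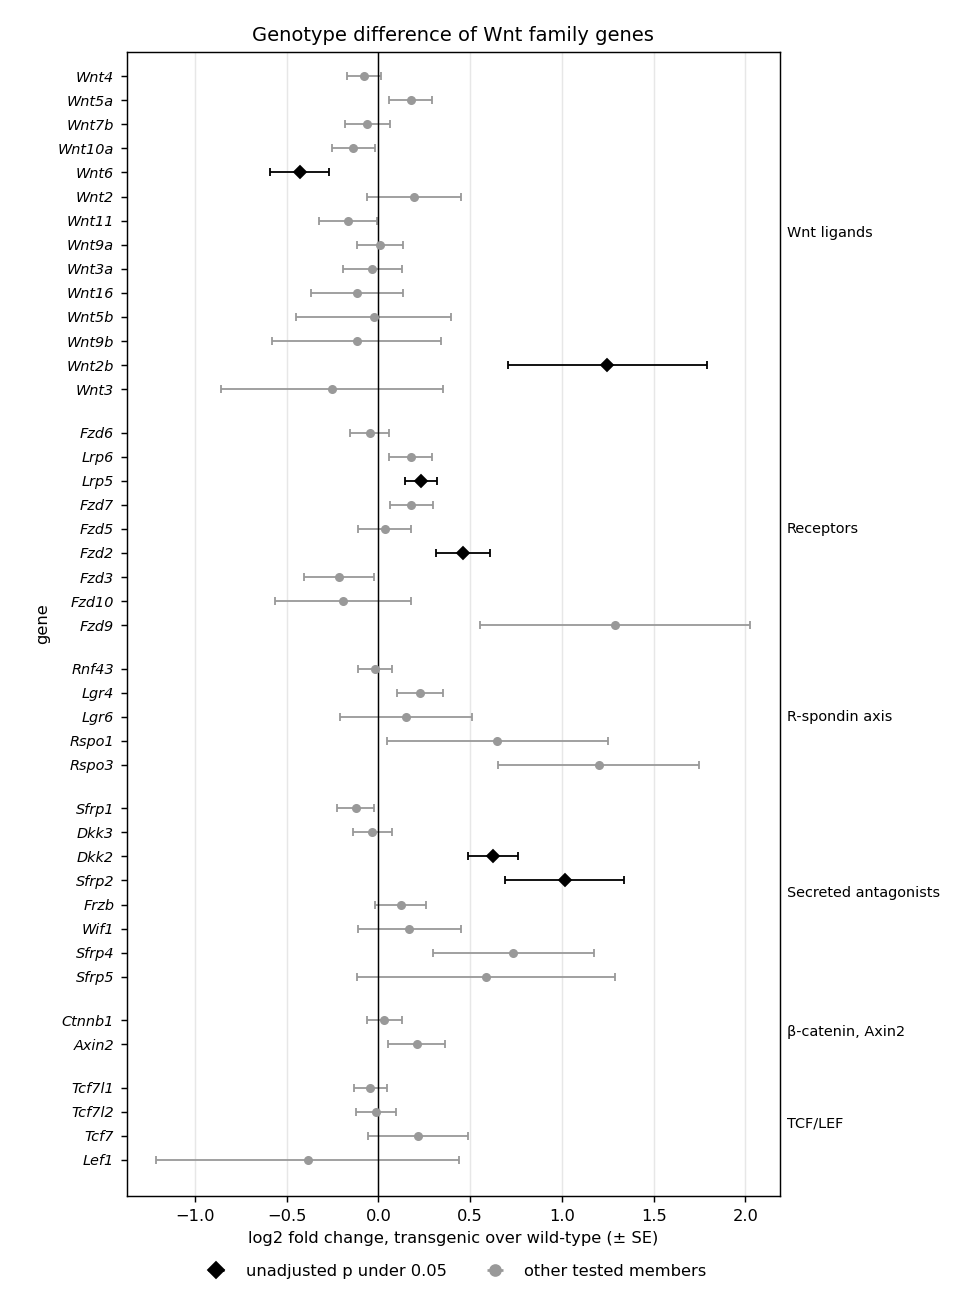
Log2 fold change of transgenic over wild-type with its standard error for the same 42 genes, black diamonds marking an unadjusted edgeR p under 0.05. Black points are Dkk2, Fzd2, Sfrp2, Lrp5 and Wnt2b to the right of 0 and Wnt6 to the left; none passed after adjustment.

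Wnt ligands ranged from abundant reads to no reads at all. Wnt4, a ligand of epithelial and kidney development, had 163 and 162 CPM in transgenic corneas 1 and 2, against 182, 160.5 and 171 CPM in wild-type corneas 1 to 3. Wnt5a, the prototype of β-catenin-independent signalling, had 79.5 and 73.6 CPM in transgenic corneas, against 59.1, 67.8 and 76.6 CPM in wild-type corneas. Wnt7b, an epithelial ligand, had 53.7 and 41.9 CPM in transgenic corneas, against 53.1, 49.6 and 46.8 CPM in wild-type corneas. All 3 ligands overlapped between genotypes, with log2 fold changes of -0.08 ± 0.10, 0.18 ± 0.12 and -0.06 ± 0.12 and edgeR adjusted p-values of 0.912, 0.860 and 0.957. These 3 were taken for their high CPM, a quantity that also grows with transcript length.

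Wnt6, a ligand of epithelia and their progenitors, had 41.9 and 32.3 CPM in transgenic corneas, against 56.5, 51.7 and 41.5 CPM in wild-type corneas. Transgenic cornea 2 was the lowest of all, but transgenic cornea 1 lay just above wild-type cornea 3, so the groups overlapped. The means were 37.1 ± 6.79 CPM in transgenic (SD, n = 2) and 49.9 ± 7.67 CPM in wild-type corneas (SD, n = 3), a log2 fold change of -0.43 ± 0.16 (edgeR adjusted p = 0.736). Without transgenic cornea 2 it was -0.25. In the rat assembly GRCr8, Wnt6 and Wnt10a are next to each other, one of 4 adjacent ligand pairs beside Wnt3a with Wnt9a, Wnt9b with Wnt3 and Wnt10b with Wnt1. Wnt10a, named after its values were seen and a ligand of teeth, hair and epithelial appendages, had 40.8 and 46.1 CPM in transgenic corneas, against 50.8, 50.5 and 42.1 CPM in wild-type corneas (log2 fold change -0.14 ± 0.12, edgeR adjusted p = 0.878). Wnt10a overlapped between genotypes. Both neighbours had lower means in transgenic corneas, and neither passed. Of the 14 tested ligands, 10 had a fold change below 0, where 6898 of 13304 genes did. The neighbours Wnt9b and Wnt3 had -0.12 ± 0.46 and -0.25 ± 0.61, and the neighbours Wnt3a and Wnt9a had -0.03 ± 0.16 and 0.01 ± 0.13.

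Because MR is a transcription factor, start regions were searched for the steroid receptor half-site TGTTCT and for the TCF/LEF core CTTTGAT, each on both strands. RefSeq windows of GRCr8 from 250 bases before to 50 bases after the start were at hand for 36 of the 52 members. The half-site was found in 2 of the 36 (Rspo3 and Wnt8b), and in 20.7% of all 33469 windows. The TCF/LEF core was found in 3 of the 36 (Axin2, Dkkl1 and Tcf7), and in 3.63% of all windows. A match is a description of letters and not a binding site. The window of Wnt6 (GRCr8 chr9:83778302-83778601, plus strand) is shown because Wnt6 was the member that went against the rest at an unadjusted p under 0.05; it holds neither motif and so has no capitals.
Wnt6: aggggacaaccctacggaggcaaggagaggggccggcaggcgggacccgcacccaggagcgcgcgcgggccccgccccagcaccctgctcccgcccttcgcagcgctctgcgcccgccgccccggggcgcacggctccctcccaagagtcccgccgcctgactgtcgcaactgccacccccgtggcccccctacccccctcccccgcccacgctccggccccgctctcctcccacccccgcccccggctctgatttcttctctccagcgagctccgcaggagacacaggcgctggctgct

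Wnt2b, which marks the ciliary margin in the embryonic eye of the chick and mouse, was low in every library. It had 0.540 and 1.21 CPM in transgenic corneas (14 and 38 counts), against 0.397, 0.294 and 0.410 CPM in wild-type corneas (11, 6 and 9 counts). Both transgenic values were above the wild-type ones, cornea 2 by far the more (log2 fold change 1.25 ± 0.54, edgeR adjusted p = 0.777, and 0.55 without transgenic cornea 2). The pigment and ciliary marker sum was also highest in transgenic cornea 2, at 169.9 CPM, and its part was not tested. Fold changes of the other 8 tested ligands ran from -0.25 for Wnt3 to 0.19 for Wnt2. Wnt10b, Wnt8a and Wnt7a had at most 7 counts in any library and were not tested, and Wnt1 and Wnt8b had 0 counts in all 5, where 3 counts would correspond to 0.0955 to 0.147 CPM.

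Among receptors, Fzd2 and Lrp5 were higher in both transgenic corneas. Fzd2, a Frizzled of mesenchymal cells, had 20.0 and 21.8 CPM in transgenic corneas, against 16.9, 12.9 and 15.6 CPM in wild-type corneas. The groups did not overlap, with means of 20.9 ± 1.32 CPM in transgenic (SD, n = 2) and 15.1 ± 2.04 CPM in wild-type corneas (SD, n = 3) and a log2 fold change of 0.46 ± 0.15 (edgeR adjusted p = 0.599). Lrp5, the co-receptor whose loss impairs bone mass and retinal vessels in humans and mice, had 65.7 and 65.8 CPM in transgenic corneas, against 55.2, 56.3 and 56.3 CPM in wild-type corneas. Its values were tight within each genotype and apart between them, though the difference was small (log2 fold change 0.23 ± 0.09, edgeR adjusted p = 0.731), and the estimate was 0.23 to 0.24 whichever library was left out. The stromal, endothelial, pigment-cell and vessel marker sums, each higher in both transgenic corneas than in any wild-type one, moved the same way. Their part was not tested.

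No other receptor had an unadjusted edgeR p under 0.05. Lrp6, the second co-receptor, had 76.3 and 82.8 CPM in transgenic corneas, against 73.8, 60.4 and 77.0 CPM in wild-type corneas (log2 fold change 0.18 ± 0.12, edgeR adjusted p = 0.860). Fzd6, a Frizzled of planar cell polarity in mouse skin, had 109.8 and 118 CPM in transgenic corneas, against 126, 122 and 106 CPM in wild-type corneas (-0.05 ± 0.10, edgeR adjusted p = 0.959). Both genes overlapped between genotypes. Fzd7 did not overlap, with 24.0 and 25.1 CPM in transgenic corneas, against 22.0, 20.0 and 23.0 CPM in wild-type corneas, but its difference was close to its error (0.18 ± 0.12, edgeR adjusted p = 0.860). Fzd9 stood out in 1 library, with 0.308 and 2.26 CPM in transgenic corneas 1 and 2 (8 and 71 counts), against 0.469, 0.440 and 0.683 CPM in wild-type corneas. Its log2 fold change of 1.29 ± 0.74 (edgeR adjusted p = 0.836) turned to -0.77 without transgenic cornea 2. Fzd3, Fzd5 and Fzd10 lay between -0.21 and 0.03. Fzd9 and Fzd7 are named after their values were seen.

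The R-spondin axis was nearly level at its turnover enzyme and low at its ligands. Rnf43 had 47.2 and 48.2 CPM in transgenic corneas, against 49.8, 46.7 and 48.3 CPM in wild-type corneas (log2 fold change -0.02 ± 0.09, edgeR adjusted p = 0.983). Lgr4, the widely expressed R-spondin receptor, had 49.0 and 55.0 CPM in transgenic corneas, against 39.9, 42.4 and 51.2 CPM in wild-type corneas (0.23 ± 0.12, edgeR adjusted p = 0.835). Lgr6, a receptor of skin stem cells in the mouse, had 1.27 and 1.81 CPM in transgenic corneas, against 1.44, 1.32 and 1.41 CPM in wild-type corneas (0.15 ± 0.36, edgeR adjusted p = 0.962). None of the 3 separated the genotypes. Lgr5, the intestinal stem cell receptor, had 2 to 6 counts per library and was not tested.

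Rspo3 and Rspo2, ligands that raise Frizzled at the surface, had few reads but were higher in both transgenic corneas. Rspo3 had 24 and 24 counts in transgenic corneas (0.925 and 0.764 CPM), against 7, 12 and 6 counts in wild-type corneas (0.253, 0.587 and 0.273 CPM). The groups did not overlap, and the log2 fold change was 1.20 ± 0.55 (edgeR adjusted p = 0.791), with 0.98 to 1.67 over fits that left out 1 library. Rspo2 had 10 and 11 counts in transgenic corneas, against 2, 1 and 0 counts in wild-type corneas. It did not pass the low-count filter, so the main fit gave no test, and its wild-type counts were at or below 3. In the edgeR fit without that filter its unadjusted p was under 0.05, and it was not called. Rspo1 had 0.424 and 1.11 CPM in transgenic corneas, against 0.361, 0.783 and 0.364 CPM in wild-type corneas, and overlapped (log2 fold change 0.65 ± 0.60). Rspo4 had at most 6 counts in any library. Rspo1 to Rspo4 are named after their values were seen, and Rspo1 and Rspo3 would not have passed the filter on their wild-type counts alone. The start window of Rspo3 (GRCr8 chr1:30112279-30112578, plus strand) is shown because, of the 36 members with a window, Rspo3 and the unread Wnt8b held the steroid receptor half-site. It is in capitals, on the reverse strand, and begins at base 30 after the start.
Rspo3: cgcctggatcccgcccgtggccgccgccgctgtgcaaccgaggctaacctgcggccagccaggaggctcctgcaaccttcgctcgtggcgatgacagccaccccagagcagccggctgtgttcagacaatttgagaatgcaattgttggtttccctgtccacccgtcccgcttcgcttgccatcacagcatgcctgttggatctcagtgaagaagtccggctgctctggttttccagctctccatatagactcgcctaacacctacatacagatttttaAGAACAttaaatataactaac

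Among secreted antagonists, Dkk2 had the smallest p of all members. It had 27.3 and 32.1 CPM in transgenic corneas, against 17.0, 21.5 and 19.4 CPM in wild-type corneas. Both transgenic corneas lay above every wild-type one, with means of 29.7 ± 3.34 CPM in transgenic (SD, n = 2) and 19.3 ± 2.25 CPM in wild-type corneas (SD, n = 3). The log2 fold change was 0.62 ± 0.14 (edgeR unadjusted p = 0.00111, adjusted p = 0.404). DESeq2 gave an adjusted p of 0.0529. With both transgenic libraries kept, the adjusted p over the alternatives ran from that value to 0.786, the last by edgeR without wild-type cornea 2. The log2 fold change itself stayed between 0.50 and 0.73 over all alternatives. Stromal, endothelial, pigment-cell and vessel marker sums were likewise higher in both transgenic corneas than in any wild-type one, and their part was not tested.

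Sfrp2, a stromal and mesenchymal binder of Wnt ligands, had 13.6 and 27.1 CPM in transgenic corneas, against 12.1, 10.5 and 7.70 CPM in wild-type corneas. Both transgenic values were above the wild-type ones, but cornea 1 only narrowly. The means were 20.4 ± 9.51 CPM in transgenic (SD, n = 2) and 10.1 ± 2.21 CPM in wild-type corneas (SD, n = 3), a log2 fold change of 1.02 ± 0.32 (edgeR adjusted p = 0.702). It was 0.44 without transgenic cornea 2 and 1.42 without transgenic cornea 1. Each of these fits leaves 1 transgenic library and cannot measure the spread within that genotype. With both transgenic libraries kept, the adjusted p over the alternatives ran from 0.156 (DESeq2) to 0.999 (edgeR without wild-type cornea 2). Transgenic cornea 2 also had the highest sums of stromal markers (2546 CPM), pigment-cell markers (169.9 CPM) and limbal and conjunctival markers (5841 CPM, against 3270 CPM in transgenic cornea 1 and 2956 to 4509 CPM in wild-type corneas); their part was not tested. The start window of Sfrp2 (GRCr8 chr2:171387286-171387585, plus strand) is shown because Sfrp2 had the widest spread between libraries among members of at least 10 CPM; it holds neither motif.
Sfrp2: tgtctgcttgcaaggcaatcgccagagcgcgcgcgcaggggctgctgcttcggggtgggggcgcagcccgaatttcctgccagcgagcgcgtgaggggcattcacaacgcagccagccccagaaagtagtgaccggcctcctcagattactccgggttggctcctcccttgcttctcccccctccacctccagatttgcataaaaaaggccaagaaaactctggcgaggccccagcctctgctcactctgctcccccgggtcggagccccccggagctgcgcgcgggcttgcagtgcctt

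**Figure D3:**
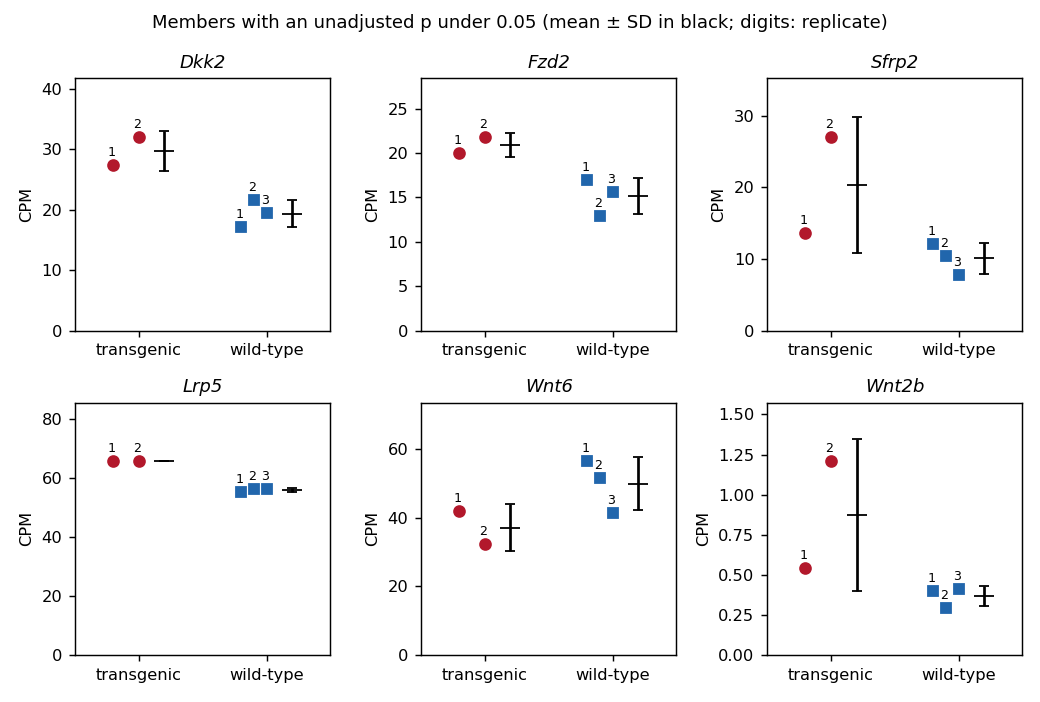
CPM in every library for the 6 members with an unadjusted edgeR p under 0.05, transgenic corneas left of wild-type ones, with mean ± SD in black and replicate numbers beside the points. Dkk2, Fzd2 and Lrp5 were apart in both transgenic corneas, whereas Sfrp2 (27.1 CPM) and Wnt2b (1.21 CPM) were far higher in transgenic cornea 2 than in cornea 1.

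**Figure D4:**
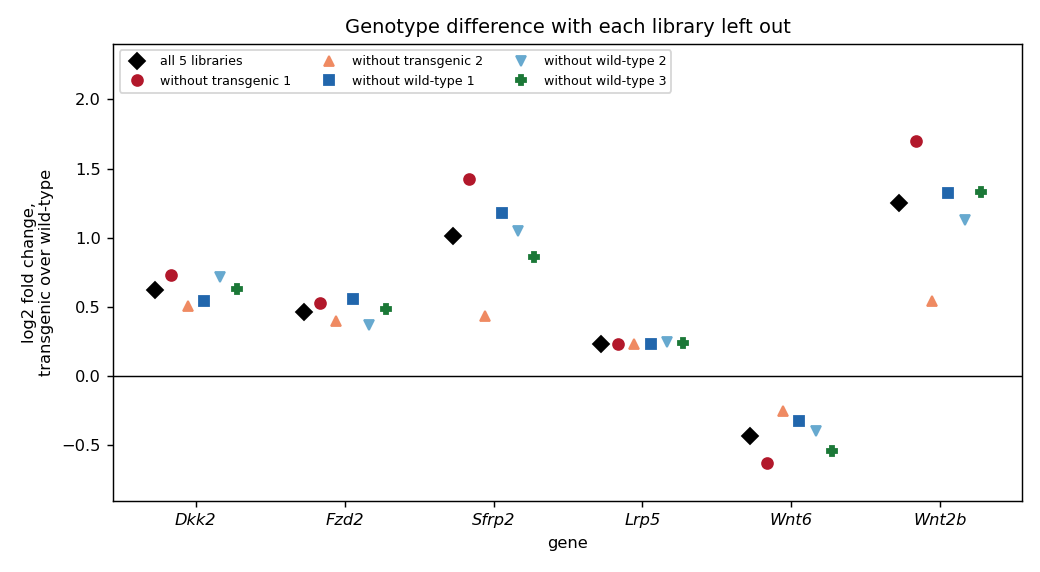
Log2 fold change of transgenic over wild-type for the same 6 genes with all 5 libraries and with each left out in turn. Lrp5 stayed at 0.23 to 0.24 and Dkk2 at 0.50 to 0.73, while Sfrp2 moved between 0.44 and 1.42.

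The antagonists of highest CPM showed no such difference. Sfrp1, an inhibitor widely expressed in ocular tissue, had 304 and 274 CPM in transgenic corneas, against 297, 327 and 320.1 CPM in wild-type corneas (log2 fold change -0.12 ± 0.10, edgeR adjusted p = 0.874). Dkk3, a divergent Dickkopf that does not act as a classical LRP inhibitor, had 273 and 236 CPM in transgenic corneas, against 272, 243 and 266 CPM in wild-type corneas (-0.03 ± 0.11, edgeR adjusted p = 0.971). Both overlapped between genotypes. Frzb, named after its values were seen, did not overlap, with 13.5 and 13.8 CPM in transgenic corneas, against 12.9, 11.6 and 13.2 CPM in wild-type corneas, yet the gap was under its error (0.12 ± 0.14). Sfrp4, also named after its values were seen, had 3.39 and 3.57 CPM in transgenic corneas, against 3.21, 0.930 and 2.05 CPM in wild-type corneas (0.74 ± 0.44, edgeR adjusted p = 0.843), and its log2 fold change was 1.22 without wild-type cornea 1 and 0.40 without wild-type cornea 2. Sfrp4 is one of 7 members whose span in GRCr8 overlaps that of another gene, here Nme8. Introns count in these spans, and whether exons overlap or reads are shared was not tested. Summed over the 10 antagonists, 640.4 and 591 CPM in transgenic corneas overlapped 617.7 to 632 CPM in wild-type corneas. Wif1 and Sfrp5 had log2 fold changes of 0.17 and 0.58, and Dkk4 and Dkkl1 had at most 4.15 counts in any library.

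Of the intracellular members none had an unadjusted p under 0.05. Ctnnb1, which encodes β-catenin, had 692 and 661 CPM in transgenic corneas, against 645, 667 and 674 CPM in wild-type corneas (log2 fold change 0.03 ± 0.10, edgeR adjusted p = 0.971); its transcript does not report the protein's stability. Axin2, a scaffold of the destruction complex and a standard β-catenin readout, had 13.7 and 12.1 CPM in transgenic corneas, against 10.6, 10.4 and 12.5 CPM in wild-type corneas. Wild-type cornea 3 lay above transgenic cornea 2, and the difference was 0.21 ± 0.16 (edgeR adjusted p = 0.861). Among TCF/LEF factors, Tcf7l1, mostly a repressor of Wnt targets, had 64.3 and 65.3 CPM in transgenic corneas, against 65.6, 69.7 and 65.0 CPM in wild-type corneas (-0.04 ± 0.09, edgeR adjusted p = 0.957). Tcf7l2 had 39.5 and 36.4 CPM in transgenic corneas, against 35.3, 41.0 and 38.5 CPM in wild-type corneas (-0.01 ± 0.11, edgeR adjusted p = 0.992). Neither separated the genotypes. Tcf7 had 2.78 and 3.85 CPM in transgenic corneas, against 2.96, 2.79 and 2.82 CPM in wild-type corneas (0.22 ± 0.27, edgeR adjusted p = 0.914). Lef1, an activating partner of β-catenin, had 11 and 7 counts in transgenic corneas, against 15, 1 and 14 counts in wild-type corneas, and its direction turned with the library left out (-0.38 ± 0.82, edgeR adjusted p = 0.959).

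The start windows of Axin2 (GRCr8 chr10:94398535-94398834, plus strand) and Tcf7 (chr10:36954230-36954529, minus strand) are shown because these tested members hold the TCF/LEF core, in capitals, beginning at base -132 and base -4 relative to the start.
Axin2: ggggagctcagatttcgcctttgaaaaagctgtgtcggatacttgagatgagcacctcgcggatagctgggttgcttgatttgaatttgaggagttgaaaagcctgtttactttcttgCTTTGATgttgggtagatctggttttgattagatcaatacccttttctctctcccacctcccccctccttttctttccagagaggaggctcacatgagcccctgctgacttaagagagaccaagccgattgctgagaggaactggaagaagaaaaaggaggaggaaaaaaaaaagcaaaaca
Tcf7: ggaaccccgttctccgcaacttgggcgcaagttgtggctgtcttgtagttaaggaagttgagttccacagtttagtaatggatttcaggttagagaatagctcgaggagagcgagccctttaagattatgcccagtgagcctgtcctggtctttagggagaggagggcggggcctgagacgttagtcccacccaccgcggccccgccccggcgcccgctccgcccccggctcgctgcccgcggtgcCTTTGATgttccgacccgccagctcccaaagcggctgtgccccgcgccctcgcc

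Over all 5 libraries, the coefficient of variation of CPM was 2.48% for Rnf43, 2.54% for Ctnnb1 and 3.25% for Tcf7l1, and 53.1% for Sfrp2. For the 26 tested members of at least 10 CPM its median was 9.72%, beside 8.71% for the 8758 genes at that level. In the isoform table, 54 isoforms carried a member's symbol, and 33 of them held their gene's whole count in every library to within 0.01 counts. Of 39 tested, edgeR called 0, as it did 0 of all 27110 isoforms; 5 had an unadjusted p under 0.05, where 3.98% of all isoforms did. Of these, Dkk2, Fzd2, Lrp5 and Sfrp2 are single-isoform genes here, so the reads are the same as above. The fifth was the named isoform of Wnt7b, with 0 and 0 counts in transgenic corneas, against 22.9, 60.3 and 15.7 counts in wild-type corneas, where it made up 1.55%, 5.95% and 1.53% of the gene's count (edgeR adjusted p = 0.999). The named Tcf7l2 isoform held 8.14% and 0.115% of the gene's count in transgenic corneas, against 14.7%, 13.2% and 2.38% in wild-type corneas, a split that varied within each genotype.

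Of 64 other Wnt pathway genes in the table, 61 were tested, edgeR called 0, and 39 had a fold change above 0, where 48.2% of all genes did. At an unadjusted edgeR p under 0.05, 6 were higher, where 4.39% of all genes were, and 0 were lower, where 1.93% were. Among 13 tested genes of secretion and extracellular control, 12 were above 0, with a median log2 fold change of 0.21. Adgra2, an adhesion receptor that works with Reck in Wnt7 signalling of mouse brain vessels, had 30.4 and 35.3 CPM in transgenic corneas, against 25.1, 18.3 and 20.3 CPM in wild-type corneas (0.63 ± 0.15, edgeR adjusted p = 0.467). Reck had 33.2 and 40.4 CPM in transgenic corneas, against 26.5, 28.7 and 26.0 CPM in wild-type corneas (0.44 ± 0.12, edgeR adjusted p = 0.492). For each of these partners the genotypes did not overlap. Vessel and mural markers, 6 of 7 with a higher mean, summed to 129.7 and 138 CPM in transgenic corneas, against 118, 102 and 95.6 CPM in wild-type corneas, and their part was not tested. Gpc6, a glypican named after its values were seen, had 2.12 and 2.74 CPM in transgenic corneas, against 1.62, 0.930 and 0.865 CPM in wild-type corneas.

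In the other lists edgeR also called 0 genes. Of 12 alternative receptors and polarity genes 8 were above 0 (median 0.06); Daam2, which links Dishevelled to actin, had a log2 fold change of 0.55 ± 0.18 and the pseudokinase receptor gene Ptk7 0.20 ± 0.10 (edgeR adjusted p = 0.639 and 0.810). Of 17 genes of the cytoplasmic relay 8 were above 0 (median -0.0033); Nkd2, which binds Dishevelled, had 0.43 ± 0.13 and Apc2, a relative of Apc, 0.59 ± 0.21 (edgeR adjusted p = 0.543 and 0.702). Of 10 nuclear cofactors 4 were above 0 (median -0.01), with 0.37 ± 0.19 for the co-repressor gene Tle1 and 0.69 ± 0.43 for Tle2 (edgeR adjusted p = 0.828 and 0.850). Tle1 had 0.15 without transgenic cornea 1 and 0.56 without transgenic cornea 2, and Tle2 had 1.11 without transgenic cornea 1 and 0.078 without transgenic cornea 2. Of 12 genes used as β-catenin readouts 9 were above 0 (median 0.22) and none had an unadjusted p under 0.05. Apcdd1, itself a Wnt inhibitor, had 0.35 ± 0.19 and the adaptor gene Nedd9 0.27 ± 0.20 (edgeR adjusted p = 0.835 and 0.861). Apcdd1 had 0.18 without wild-type cornea 1 and 0.21 without transgenic cornea 2, and Nedd9 had 0.46 without transgenic cornea 1, 0.038 without transgenic cornea 2 and 0.15 without wild-type cornea 2. The proliferation genes Ccnd1 and Myc, named after their values were seen, had -0.07 ± 0.11 and 0.05 ± 0.15.

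**Figure D5:**
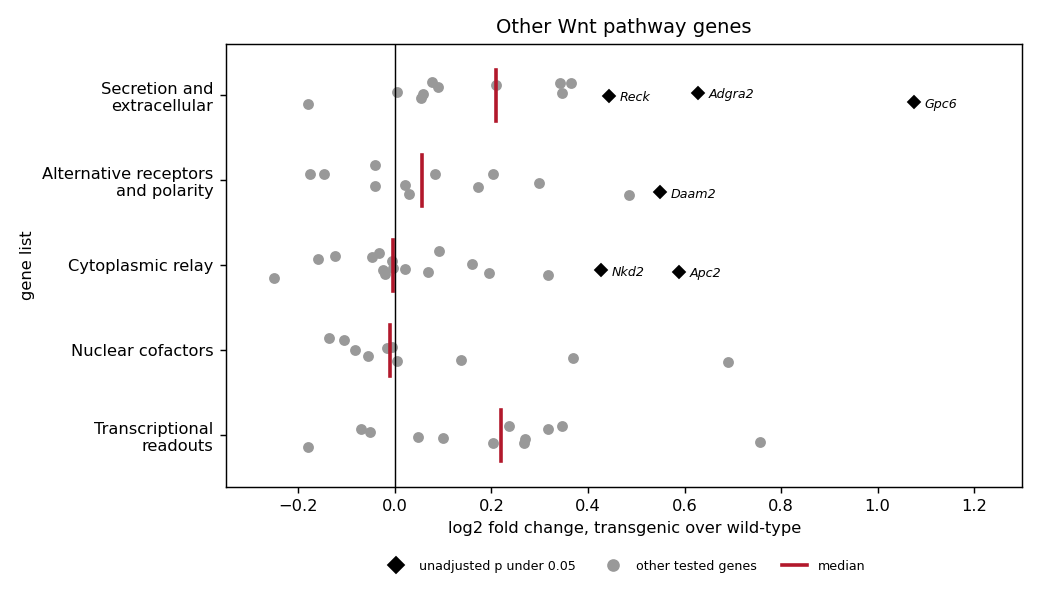
Log2 fold change of transgenic over wild-type for tested genes of 5 other Wnt pathway lists, each point a gene (Nkd1, Notum and Apcdd1 stand in more than one list), the red bar the list median and black diamonds an unadjusted edgeR p under 0.05. The medians were 0.21 for secretion and extracellular control and 0.22 for readouts, and within 0.06 of 0 for the other lists.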

How the data were processed

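Corneal RNA of 2 transgenic and 3 wild-type rats was sequenced by the authors. The authors deposited expected counts (estimated counts) per gene and per isoform, made for each library on its own and not scaled for depth, as their fractions and unequal totals show. Tools listed, with no role or order, per the submitters' processing notes are STAR 2.5.3a and RSEM 1.2.28, and edgeR 3.28.0 and DESeq2 1.26.0, besides fastp and FastQC, and the build is rn6. RSEM-type estimates divide shared reads between transcripts, so single isoforms are less certain than genes, and no source used here says whether the libraries are stranded.

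Counts were rounded, filtered by filterByExpr (minimum count 10), scaled by TMM and tested by edgeR 4.0.16 (R 4.3.3; quasi-likelihood, robust, two-sided, Benjamini-Hochberg over all genes tested, threshold 0.05), without covariates. Standard errors were taken as the log2 fold change over the root of the F statistic. CPM uses the TMM-scaled library size. SDs and standard errors include the spread between libraries, and the floor of 3 counts covers counting error only. Alternatives were DESeq2 1.42.0, limma 3.58.1 voom, DESeq2 size factors, no filter, a replicate block and each library left out. The test was run on simulated data first. There it recovered 15 of 50 genes changed 1.5-fold and 30 of 50 changed 2-fold, and made 16 false calls among other genes.

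The gene family and the symbol rule that gives its members, the gene lists and the alternatives were all chosen with earlier results of these data known, although the rule itself reads symbols only. Values in every library are given for members with an unadjusted p under 0.05, the 3 of highest mean CPM per role (no gene lengths were at hand) and Axin2, Lef1 and Ctnnb1, and fold changes for the 2 other pathway genes of smallest p per list. All 52 members matched RefSeq GRCr8, used for gene order and start sequences; no rn6 coordinates are given.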

Additional observations from a re-analysis of the deposited data

How the results depend on the processing

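No Wnt family gene was called by DESeq2 or limma voom. By edgeR, DESeq2 size factors, no low-count filter or the replicate block gave 0 calls as well. Leaving out 1 wild-type library also gave 0 calls. The fits without a transgenic library leave 1 in that group and are given by fold change only. Over all genes, 1 call became 2 without the filter, 52 by DESeq2, 16 with the replicate block and 2 to 36 with a library left out. The median log2 fold change of members, 0.03, was 0.081 without the filter, 0.054 with the block and 0.036 to 0.12 with a library left out; the causes were not tested, beyond the 50 members the unfiltered fit takes in. The labels do not say that replicate numbers pair rats, so the block has no stated basis in the design. Same-numbered libraries had correlations of 0.00 and -0.11 in their deviations from group means. With 2 transgenic libraries these deviations mirror each other, so the correlations cannot decide whether rats were paired.

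Lef1 had a log2 fold change of 0.012 by limma voom and 0.36 with the block. With a library left out, values ran from -0.89 to 0.025 for Lef1, -0.0019 to 0.065 for Ctnnb1, -0.25 to 0.11 for Wnt7b, -0.035 to 0.012 for Rnf43, -0.13 to 0.38 for Lgr6, -0.12 to 0.011 for Fzd6, -0.14 to 0.070 for Dkk3, -0.073 to 0.050 for Tcf7l2, -0.041 to 0.43 for Tcf7 and -0.77 to 2.08 for Fzd9. Gene values as sums of isoforms were not run, since only some isoforms carry a symbol. With 2 transgenic libraries, a member that did not pass is not shown to be unchanged.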
